A study of Mus musculus with 6 samples.

Results

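Fatty acid oxidation enzymes are described here in inguinal white adipose tissue, a subcutaneous fat depot, of male C57BL/6J mice exposed to arsenic. They are a list of 31 genes named for their roles in activating, importing and oxidizing fatty acids, and all 31 were found by symbol among the 13490 genes of the deposited table. The list follows gene function and uses no threshold on the measured values. RNA sequencing compared 3 wild-type samples from mice given distilled water with 3 wild-type samples from mice whose drinking water carried 300 ppb sodium arsenite for 9 weeks, all at an age of 15 weeks; no allele or other agent is labelled. The series title concerns adaptive thermogenesis, and fatty acids are the main fuel of that process.

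Long-chain fatty acids are first joined to coenzyme A by acyl-CoA synthetases. Carnitine palmitoyltransferases then carry the acyl chain into the mitochondrion, where it is shortened in repeated rounds of dehydrogenation, hydration, a second dehydrogenation and thiolysis. Electrons leave the first dehydrogenation through the electron transfer flavoprotein. Peroxisomes run a parallel set of reactions on very long and branched chains. White adipocytes mainly store and release fatty acids, whereas brown and beige adipocytes and muscle burn them.

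The deposited values were 1 mean per gene for each group, on a count-like scale, so no SD or value per mouse stands behind the comparisons below. Per the labels, each sample gave 20M mapped reads, and the files hold no further measure of depth. The authors' deposited table also gave a log2 ratio of arsenite over water and a posterior probability of equal expression (PPEE) for each gene, and genes with a PPEE of 0.05 or less count here as called. The markers of the labelled tissue were abundant, with authors' means of 17519.8 (water) and 20333 (arsenite) for Adipoq, the adiponectin gene, and 6184 and 7389 for Plin1, a lipid droplet coat protein of adipocytes. The 18 measured skeletal muscle markers were also abundant, with summed means of 301408 and 231821. The authors' means of all genes summed to 10.4% less with arsenite than with water.

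Most fatty acid oxidation enzymes had lower means with arsenite, and none was called. Of the 31 genes, 28 had log2 ratios below 0 in the authors' deposited table, against 54.5% of all genes. Their median log2 ratio was -0.37, against -0.03 over all genes. In whole tissue, fewer cells of a type and less RNA per cell cannot be told apart. In the authors' deposited table, 0 of the 31 were called higher, where 0.385% of all genes were, and 0 were called lower, where 0.348% were. Both counts lie at the background and are no result about these genes. Their PPEE values in the authors' deposited table ran from 0.853 for Acsl4 to 0.9997 for Acsl1, and 95.0% of all genes had a PPEE above 0.9.

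By size alone, with no test, 7 members (22.6%) had means at least 1.5-fold lower with arsenite, against 5.95% of all genes. Of 423 other genes annotated to mitochondria, 74 were also at least 1.5-fold lower, and of 14 annotated to peroxisomes, 0 were. None of the members was at least 1.5-fold higher, against 5.08% of all genes. The 7 were Acot1, Acsl5, Cpt1b, Hadhb, Acadvl, Acaa2 and Etfdh, the last at 1.62-fold. Hadha at 1.49-fold and Decr1 at 1.47-fold lay just short of that size. Abundant genes lay lower as a whole. Among the 1457 genes with an average mean of at least 1000, 70.5% had ratios below 0 in the authors' deposited table, the median was -0.17, and 9.81% were at least 1.5-fold lower. Of the 21 members in that range, 20 had ratios below 0 in the authors' deposited table, with a median of -0.37, and 5 (23.8%) were at least 1.5-fold lower. Rescaling the means moved some of these values: between 23 and 28 members had ratios below 0 over all settings tried, and the count of 7 became 4 under quantile normalization and 4 with sums made equal.

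**Figure D1:**
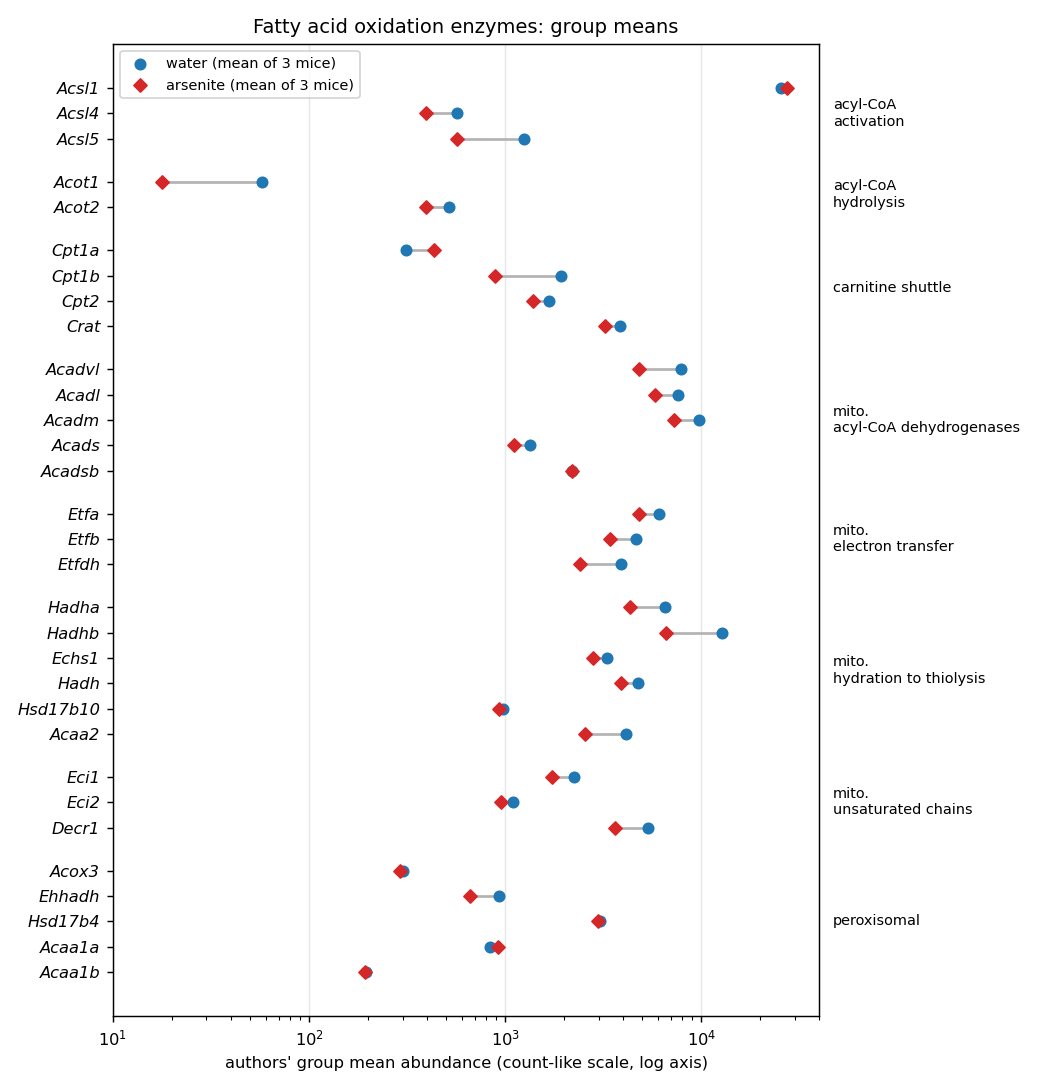
Authors' group means of the 31 fatty acid oxidation enzymes, on a log axis of count-like abundance. Blue circles mark the mean of the 3 water samples and red diamonds that of the 3 arsenite samples; rows are grouped by step. In 28 rows the diamond lies left of the circle, and the widest gap is that of Acot1 (57.5 and 17.7).

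Activation of fatty acids was dominated by Acsl1, the main acyl-CoA synthetase of adipocytes. Its authors' mean was 25457 with water and 27227 with arsenite, a 1.07-fold higher value. Acsl4, which prefers arachidonic acid, had means of 569 and 396, a 1.44-fold lower value with arsenite. Acsl5, a synthetase of mitochondrial and reticular membranes, had 1245 and 568, a 2.19-fold lower value. The isoforms thus differed in direction, and the authors' deposited table lists log2 ratios of 0.10, -0.52 and -1.13. Means can be compared between genes only per base of gene length. On that scale, Acsl1 made up 92.8% of the summed level of the 3 synthetases with water and 96.4% with arsenite, while Acsl5 made up 5.58% and 2.47%.

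The thioesterases, which undo activation by splitting acyl-CoA, both had lower means with arsenite. Acot1, the cytosolic enzyme, had 57.5 and 17.7, a 3.24-fold lower value and the widest ratio of all members, at the lowest level of all members. Acot2, its mitochondrial counterpart, had 519 and 397, a 1.31-fold lower value. The pair lie next to each other on chromosome 12 of GRCm38, Acot2 at 83987861 to 83993877 and Acot1 at 84009502 to 84017670. Their longest reading frames share 95.5% of aligned bases, and 24.5% of the 50-base stretches of Acot2 transcripts also occur in Acot1. How reads common to both were divided was not given in the sources used here, so each of these values is uncertain as that of a single gene.

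In the carnitine shuttle, the isoforms of the entry enzyme had ratios of opposite sign. Cpt1b, the muscle-type carnitine palmitoyltransferase that also prevails in brown fat, had authors' means of 1918 with water and 891 with arsenite, a 2.15-fold lower value. Cpt1a, the liver-type isoform, had 312 and 435, a 1.39-fold higher value. Per base of gene length, Cpt1b stood 9.19-fold above Cpt1a with water and 3.07-fold above it with arsenite. Cpt1b thus made up 90.2% of the summed length-scaled level of the pair with water and 75.4% with arsenite. This ratio within each group does not depend on the scaling between groups. Cpt2, which returns the acyl chain to coenzyme A inside the mitochondrion, had 1663 and 1393, and Crat, which handles acetyl and other short chains, had 3869 and 3219. Both were about 1.2-fold lower with arsenite, and the ratio of Crat was not below 0 under quantile normalization. The reading frames of Cpt1a and Cpt1b share 66.9% of aligned bases, but the gene model Gm44502, annotated over Cpt1b (chromosome 15 of GRCm38, 89416405 to 89425862), covers 81.4% of its exon bases on the same strand. Gm44502 was not found by symbol in the authors' deposited table. Whether reads were shared between these models is not given in the sources used here.

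**Figure D2:**
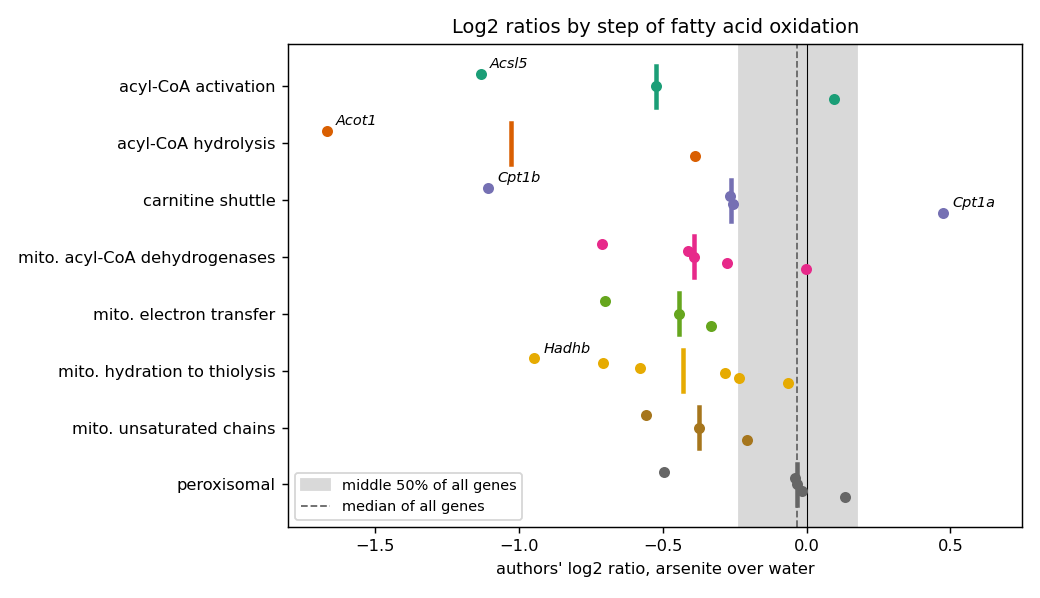
Log2 ratios of arsenite over water from the authors' deposited table, each point 1 of the 31 enzymes, with a coloured bar at the median of each step. The grey band holds the middle 50% of all genes (-0.23 to 0.18). The medians of the 4 mitochondrial steps, of activation, of hydrolysis and of the carnitine shuttle (-0.26) lie left of it. The peroxisomal median (-0.03) lies inside it.

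The mitochondrial steps, counted without the carnitine shuttle and the thioesterases, held 17 enzymes. All 17 had log2 ratios below 0 in the authors' deposited table, with a median of -0.39. Their count below 0 was 14 under quantile normalization and 15 with sums made equal, with medians of -0.21 and -0.23. Among the acyl-CoA dehydrogenases, which open each round on chains of different length, Acadvl (very long chains) had the widest ratio, with means of 7898 and 4831, a 1.64-fold lower value. Acadl (long chains) had 7639 and 5822, and Acadm (medium chains) 9697 and 7285, both about as far apart at 1.31-fold and 1.33-fold. Acads (short chains) had 1339 and 1106. Acadsb, which acts on short branched chains from isoleucine, had 2193 and 2192, the nearest to equal of all 31. Without a replicate error, the order of these folds was not tested.

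Electrons from those dehydrogenases pass to the electron transfer flavoprotein and its ubiquinone oxidoreductase. Etfa, its alpha subunit, had means of 6078 and 4829, and Etfb, its beta subunit, 4625 and 3405. Etfdh, the oxidoreductase that hands the electrons to the respiratory chain, had 3887 and 2396, a 1.62-fold lower value. The subunit genes kept nearly the same proportion, with Etfa at 0.826 of the length-scaled level of Etfb with water and 0.891 with arsenite. The gene model Gm45233, on the same strand, covers 53.0% of the exon bases of Etfb and was not found by symbol in the authors' deposited table.

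For long chains, hydration, the second dehydrogenation and thiolysis are carried out by the mitochondrial trifunctional protein, a complex of Hadha and Hadhb. Hadhb, the thiolase subunit, had means of 12743 and 6616, a 1.93-fold lower value and the widest gap between means of any member in absolute terms. Hadha, the subunit with the hydratase and dehydrogenase, had 6490 and 4349, a 1.49-fold lower value. Per base of gene length, Hadhb stood 3.84-fold above Hadha with water and 2.97-fold above it with arsenite. Of the 50-base stretches of Hadhb transcripts, 18.1% also occur in the gene model Gm13910, which was not found by symbol in the authors' deposited table. Narrower gaps were those of Echs1, the short-chain hydratase, at 3310 and 2816, and Hadh, the short-chain dehydrogenase, at 4748 and 3902. Acaa2, the medium-chain thiolase, had 4147 and 2539, a 1.63-fold lower value and a wider fold than that of Hadha. Hsd17b10, which serves isoleucine breakdown and mitochondrial tRNA processing, had 971 and 929.9.

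Hadha and Hadhb face away from each other on chromosome 5 of GRCm38, Hadha on the minus strand at 30119423 to 30154980 and Hadhb on the plus strand at 30155253 to 30184593, with 272 bases between their starts. Their promoters are shown because both genes of the complex had lower means, by different folds, and their starts lie close together. Each window holds the 250 bases before and 50 bases after a start in RefSeq (GRCm38.p6), 5′ to 3′ on the strand of its gene, and capitals mark the 228 bases common to both windows, which are reverse complements of each other.
Hadha promoter, chr5:30154931-30155230, minus strand: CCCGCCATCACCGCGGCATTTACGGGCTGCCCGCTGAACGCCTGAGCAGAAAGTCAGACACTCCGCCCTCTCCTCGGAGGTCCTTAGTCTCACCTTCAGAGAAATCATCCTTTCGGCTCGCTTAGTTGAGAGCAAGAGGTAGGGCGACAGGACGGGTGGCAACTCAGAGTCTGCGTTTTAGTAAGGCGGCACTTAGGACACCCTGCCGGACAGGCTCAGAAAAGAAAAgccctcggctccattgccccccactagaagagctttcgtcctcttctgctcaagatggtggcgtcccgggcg
Hadhb promoter, chr5:30155003-30155302, plus strand: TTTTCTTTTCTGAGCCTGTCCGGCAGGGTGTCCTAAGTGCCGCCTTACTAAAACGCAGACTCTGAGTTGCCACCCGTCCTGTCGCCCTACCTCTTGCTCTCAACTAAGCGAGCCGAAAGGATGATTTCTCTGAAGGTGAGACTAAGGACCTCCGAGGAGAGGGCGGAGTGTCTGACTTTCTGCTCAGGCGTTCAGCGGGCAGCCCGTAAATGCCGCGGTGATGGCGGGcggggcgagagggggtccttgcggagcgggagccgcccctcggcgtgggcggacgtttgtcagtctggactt
Neither window held the nuclear receptor, NRF1 or ETS motifs described further on.

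The auxiliary enzymes that let unsaturated chains through the pathway had lower means as well. Decr1, the dienoyl-CoA reductase, had 5362 and 3642, a 1.47-fold lower value. The enoyl-CoA isomerases Eci1 and Eci2, the second found in both mitochondria and peroxisomes, had 2237 and 1729 and 1095 and 948. All 3 kept ratios below 0 under every setting tried.

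Of the peroxisomal enzymes 4 of 5 lay close to equal, with a median log2 ratio of -0.03 over 5 genes in the authors' deposited table, and this median was 0.03 with upper-quartile scaling and 0.12 with sums made equal. Ehhadh, the bifunctional enzyme of straight chains, was the exception, with means of 934 and 663, a 1.41-fold lower value. Hsd17b4, the bifunctional enzyme of branched and very long chains, had 3058 and 2987, and Acox3, an oxidase of branched chains, 301 and 293. The thiolases Acaa1a and Acaa1b had 842 and 924 and 195 and 193. Their longest reading frames share 96.5% of aligned bases, and 30.5% of the 50-base stretches of Acaa1b occur in Acaa1a, so their separate values are uncertain. The difference between the peroxisomal and the mitochondrial medians was not tested, since values per mouse were not analysed here.

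Levels set per base of gene length, scaled to the same sum within each group, show which single enzymes had most transcript. With water, Acsl1 (1413) and Hadhb (1402) stood highest, followed by Etfb (1085), Acadm (1015), Etfa (897), Acadl (847) and Acadvl (773). The lowest were Acot1 (7.97), Cpt1a (15.6), Acox3 (16.4), Acsl4 (24.6) and Acaa1b (25.3). With arsenite, Acsl1 (1745) was again highest, and Etfb (923) and Acadm (881) lay above Hadhb (840). The carnitine shuttle enzymes Cpt1b at 143 and Cpt2 at 152 with water were near Acadsb (141) and Acads (154) and below the other dehydrogenases. Across the 31 genes, Spearman's rho between the ratio and the water level was -0.16, against -0.30 over all genes, where genes are not independent replicates. The water mean is also the denominator of the ratio, so these values cannot measure a relation between level and change.

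Promoter letters were searched on both strands for elements through which fatty acid oxidation genes are known to be controlled. Windows matched 26 of the 31 members by gene identifier and 10655 genes of the table. The element of the oestrogen-related receptors, TCAAGGTCA, was in 0 of 26 member windows and in 0.319% of all. The nuclear receptor hexamer AGGTCA, which the former contains, was in 4 (15.4%), those of Acadm, Acadvl, Cpt1a and Echs1, and in 15.1% of all. A pair of such hexamers in the same direction 1 base apart, with up to 1 mismatch in each so that it can overlap the single hexamer motif, is the form bound by peroxisome proliferator-activated receptors (PPAR), and it was in 1 window (3.85%), that of Etfa, against 2.35% of all. The core of the NRF1 site, CGCATGCG, was in 2 (7.69%), those of Acadm and Etfdh, against 4.12%. The ETS site CCGGAAGT was in 1 (3.85%), that of Cpt2, against 8.63%, and CCAAT was in 14 (53.8%) against 42.7%. These shares count letters in a window of 300 bases and show nothing of binding. The windows of 3 genes with the hexamer are shown because Cpt1a had a ratio above 0 and Acadvl and Acadm had ratios below it. Capitals mark the hexamer, which reads as its reverse complement TGACCT in Acadm and Cpt1a, and in Etfa the pair of hexamers, also on the opposite strand.
Acadm promoter, chr3:153944594-153944893, minus strand: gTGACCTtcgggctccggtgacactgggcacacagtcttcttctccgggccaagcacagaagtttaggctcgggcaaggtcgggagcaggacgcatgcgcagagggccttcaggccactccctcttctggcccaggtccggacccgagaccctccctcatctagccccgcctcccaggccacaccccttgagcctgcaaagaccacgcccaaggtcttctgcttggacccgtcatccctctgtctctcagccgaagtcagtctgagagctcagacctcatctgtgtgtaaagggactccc
Acadvl promoter, chr11:70015379-70015678, minus strand: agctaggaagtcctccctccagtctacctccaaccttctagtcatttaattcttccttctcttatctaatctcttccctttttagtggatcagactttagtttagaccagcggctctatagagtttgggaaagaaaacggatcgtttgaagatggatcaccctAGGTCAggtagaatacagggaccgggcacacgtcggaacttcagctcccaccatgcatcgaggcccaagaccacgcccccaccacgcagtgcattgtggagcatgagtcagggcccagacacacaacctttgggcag
Cpt1a promoter, chr19:3323051-3323350, plus strand: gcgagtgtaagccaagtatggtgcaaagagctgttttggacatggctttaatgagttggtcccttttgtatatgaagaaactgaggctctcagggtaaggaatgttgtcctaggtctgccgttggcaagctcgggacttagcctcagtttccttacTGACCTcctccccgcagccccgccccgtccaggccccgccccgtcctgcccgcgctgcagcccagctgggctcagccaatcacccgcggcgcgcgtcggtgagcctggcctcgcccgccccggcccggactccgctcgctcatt
Etfa promoter, chr9:55512194-55512493, minus strand: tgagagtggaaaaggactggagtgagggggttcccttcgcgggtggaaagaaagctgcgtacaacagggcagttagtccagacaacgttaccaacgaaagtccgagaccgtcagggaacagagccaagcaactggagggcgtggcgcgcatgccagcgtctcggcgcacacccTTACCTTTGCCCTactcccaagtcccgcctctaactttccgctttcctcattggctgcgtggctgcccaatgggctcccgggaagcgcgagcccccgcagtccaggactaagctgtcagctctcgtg

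Other genes of the pathway were taken from 9 lists that exclude the 31 members, 124 genes in all, of which 114 were measured. Of the 114, 85 had ratios below 0 in the authors' deposited table, and the median was -0.19. Only 1 was called, higher with arsenite, where 0.385% of all genes were called higher. That gene was Klf15, a Krüppel-like factor active in fat and muscle, with authors' means of 415 and 518 (PPEE 0.00696 in the authors' deposited table). Making sums equal multiplies each group by a single factor, so the medians of all 9 lists necessarily moved upward with that of all genes. Of 7 genes of carnitine supply and acyl transfer, 5 had ratios below 0 in the authors' deposited table (median -0.21, but -0.056 with sums made equal). Slc25a20, the carnitine-acylcarnitine carrier that completes the shuttle, had means of 2858 and 1884, and Slc22a5, the plasma membrane carnitine transporter, 555 and 404. Of 16 other synthetases and thioesterases, 13 had ratios below 0 in the authors' deposited table (median -0.40, and -0.24 with sums made equal), with Acot11, a thioesterase of thermogenic fat, at 1087 and 394 and Acss2, the acetyl-CoA synthetase of the cytosol, at 1812 and 884.

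The other oxidation enzymes listed were mainly mitochondrial, many of them for branched-chain amino acids and propionate. Their median log2 ratio was -0.17 over 20 genes in the authors' deposited table, 16 of them below 0. That median was -0.076 under quantile normalization and -0.011 with sums made equal. Ech1, an auxiliary isomerase, had means of 4911 and 4059, Echdc1, which removes ethylmalonyl-CoA, 3420 and 2205, and Mcee, an epimerase of propionate breakdown, 589 and 395. Of 15 other peroxisomal genes 12 had ratios below 0 in the authors' deposited table (median -0.19, but -0.077 under quantile normalization and -0.028 with sums made equal). Slc27a2, an acyl-CoA synthetase and transporter of very long chains, had means of 699.99 and 219, and Nudt7, a coenzyme A hydrolase, 1056 and 634.

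Entry into mitochondria is held back by malonyl-CoA, which inhibits the outer carnitine palmitoyltransferase. Of 9 genes of malonyl-CoA turnover and its control, 8 had ratios below 0 in the authors' deposited table (median -0.42, and -0.26 with sums made equal). None of the 9 was called, where 0.385% of all genes were called higher and 0.348% lower. Acacb, the carboxylase placed at the mitochondrion, had means of 4271 and 2641, and Acaca, the carboxylase of fatty acid synthesis, 11550.4 and 6140.05. Mlycd, the decarboxylase that removes malonyl-CoA, had 1015 and 652, so both the making and the removing enzymes had lower means. Of 18 transcriptional regulators 13 had ratios below 0 in the authors' deposited table (median -0.12, but 0.04 with sums made equal). Ppara, the PPAR of oxidative tissues, had 799 and 476, Ppargc1a, a coactivator of mitochondrial biogenesis, 1035 and 609.6, Esrra, an oestrogen-related receptor, 1184 and 727, and its relative Esrrg 135 and 71.6.

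**Figure D3:**
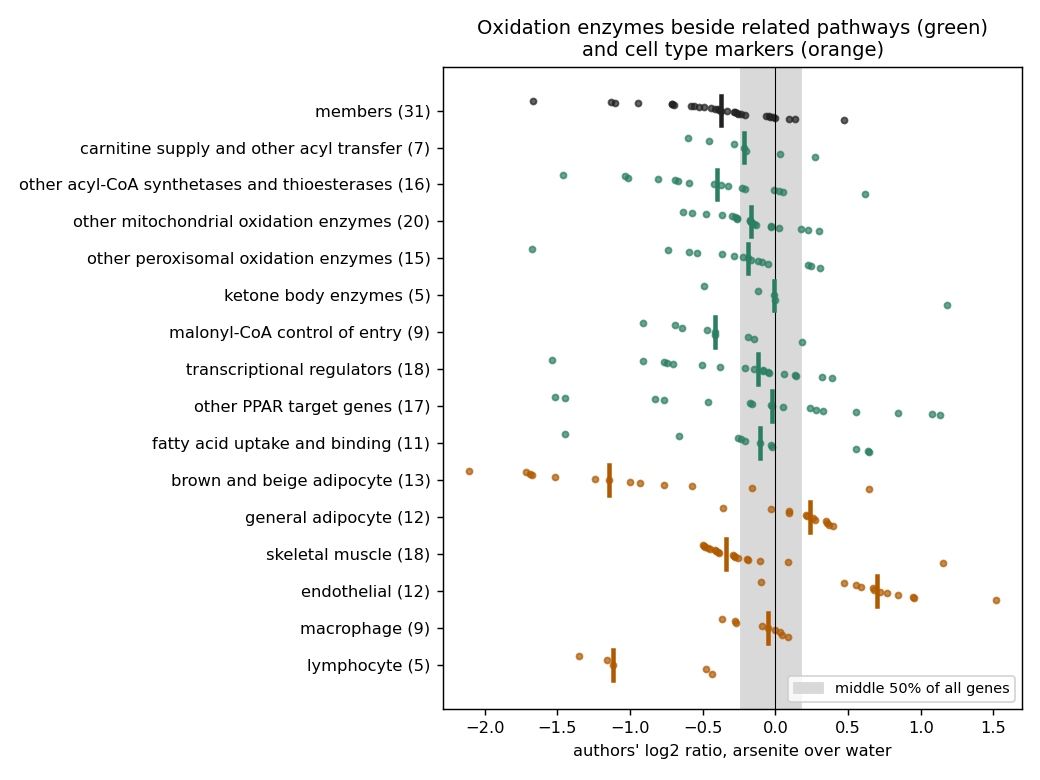
Log2 ratios from the authors' deposited table for the 31 enzymes (black), genes of 9 related pathway lists (green) and 6 lists of cell type markers (orange), with bars at the medians and the number measured in brackets. The grey band holds the middle 50% of all genes; brown and beige adipocyte markers (median -1.14) lie furthest left and endothelial markers (median 0.70) furthest right.

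Ratios of cell type markers differed in direction between the lists, and these differences were not tested. No gene of the 6 marker lists was called, where 0.385% of all genes were called higher and 0.348% lower. Of 13 measured brown and beige adipocyte markers, 12 had ratios below 0 in the authors' deposited table, with a median of -1.14. The summed means of the 13 were 63824 with water and 28890.0 with arsenite. Ucp1, the uncoupling protein of thermogenic fat, had 37406 and 15854, and Cidea, a lipid droplet protein of the same cells, 6787 and 2372. Cidea, Ppargc1a, Pdk4 and Slc27a2 stand both in this list and in the pathway lists. Of 18 skeletal muscle markers, none listed at 0, 16 had ratios below 0 (median -0.34, but -0.15 under quantile normalization and -0.18 with sums made equal), with Myh4, a fast myosin, at 61539.6 and 44653, Acta1, skeletal actin, at 28194 and 19956 and Ckm, the muscle creatine kinase, at 25458 and 21293. Mb, the myoglobin gene, lay the other way, at 126 and 280.4. Muscle expresses Cpt1b at high levels. Of 12 general adipocyte markers 10 had ratios above 0 (median 0.24, and 0.39 with sums made equal), with summed means of 410796 and 440244. Of 12 endothelial markers 11 had ratios above 0 (median 0.70), with Pecam1, an endothelial adhesion molecule, at 644 and 1025 and summed means of 3720 and 6207. The 9 macrophage markers had a median of -0.05 (0.11 with sums made equal) and summed means of 4669 and 4140.03, with Cd68 at 129.8 and 125. The 5 measured of 10 lymphocyte markers summed to 109 and 60.5. The part of these cell types in the enzyme ratios was not tested.

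Of the 423 other genes that the deposited annotation assigns to a mitochondrial component, 77.1% had ratios below 0 in the authors' deposited table. Their median was -0.31 (-0.15 with sums made equal). Under quantile normalization it was -0.21, and that of the 17 mitochondrial oxidation enzymes was also -0.21. Of these 423, 2 were called, both lower, where 0.348% of all genes were called lower. A count this small is no result about mitochondrial genes, and the 2 are named after their values were seen. Fdps, the farnesyl diphosphate synthase of the sterol pathway, had means of 494 and 265, and Fis1, which serves the fission of mitochondria and peroxisomes, 893 and 709. The annotation assigns 14 other genes to peroxisomes, and 1, again Fis1, was called lower, too few to be a result. Of the 14, 12 had ratios below 0 in the authors' deposited table, with a median of -0.26 (-0.20 under quantile normalization and -0.11 with sums made equal). The median of the 5 peroxisomal oxidation enzymes, beside it, was -0.03 in the authors' deposited table. The same annotation places 22 of the 31 members in mitochondria, with a median of -0.43. Of these 22, 20 had ratios below 0 in the authors' deposited table and 2 above, with Cpt1a highest at 0.48. Differences between the oxidation enzymes and other mitochondrial or peroxisomal genes were not tested.

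Log2 ratios followed gene length over the whole table (Spearman's rho 0.21 across 13490 genes), whereas among the 31 members rho was 0.04. The members' median length of 2205 bases was below the 2795 of all genes. With the length trend of all genes removed, the median log2 ratio of the members was -0.27, 26 of 31 lay below 0, and 8 were at least 1.5-fold lower. Exons of genes on the opposite strand also overlap some members, and the strand setting of the counting is not given in the sources used here. The largest such overlap covers 42.9% of the exon bases of Acadvl and belongs to Dvl2, whose own means were 52.9 and 59.6. The part of this overlap in the values of Acadvl was not tested.

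**Figure D4:**
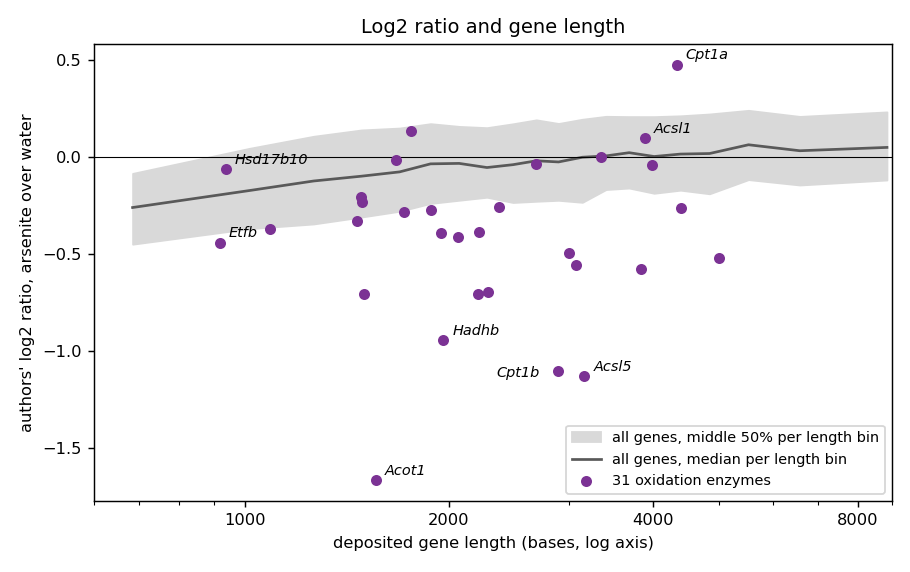
Log2 ratio of arsenite over water from the authors' deposited table against deposited gene length in bases (log axis), for the 31 enzymes (purple) and all genes (grey line, median per length bin; grey band, middle 50%). All genes run from negative ratios at short lengths to about 0 at long ones, while the enzymes show no such slope and mostly lie below the band's median.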

How the data were processed

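RNA sequencing of inguinal fat covered 6 samples, 3 per group by the treatment label. Per the labels' protocols, reads were aligned to GRCm38; RSEM, HISAT and Bowtie2 are named, per the submitters' processing notes, with no role or version. The authors deposited a mean signal per gene and group, not whole-number counts, and, per the file headers, a log2 ratio, a PPEE and a gene length. How libraries were scaled and genes filtered is not given in the sources used here. The log2 ratio equals that of the means with 0.574 added to each, to within 3.62e-08. PPEE is the name EBSeq uses for a posterior probability and is not a p-value.

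The planned tests per mouse could not be run, so values carry no SD and results are counts, medians and folds of the authors' means. The members and gene lists were chosen with earlier results of these data known, and the 1.5-fold size and the range of means from 1000 after the values were seen. Every member is named. From the other pathway lists, 10 set genes, each called gene and the 2 of largest absolute ratio per list with a mean of at least 20 are named, and from the marker lists 10 set genes; other names are given as chosen after their values were seen, and 2 genes the rule names are not reported here. Ratios were recomputed with upper-quartile scaling, quantile normalization, 0.1 added, an average mean of at least 50, the lowess length trend (span 0.3) removed, and, chosen after seeing the data, sums made equal; the scripts were tested on simulated data. Sequences are from RefSeq (GRCm38.p6) and transcripts from GENCODE M21. Python 3.11.15, pandas 2.3.3, statsmodels 0.14.6 and biopython 1.88 were used.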

Additional observations from a re-analysis of the deposited data

How the results depend on the processing

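The means could not be split by mouse, so leaving out replicates and the planned edgeR and limma fits were not run, and no result has an error. No paired analysis was possible because the groups share no replicate numbers. No member was called in either direction at PPEE bounds of 0.01 and 0.1 or at an average mean of at least 50. Of the 31 log2 ratios, 21 stayed below 0 and 3 (Acsl1, Cpt1a and Acaa1a) above 0 under every setting that kept the gene; the other 7 were Crat, Acadsb, Echs1, Hsd17b10, Acox3, Hsd17b4 and Acaa1b. Making sums equal multiplies each group by a single factor, so it shifts all ratios nearly alike and cannot test the members' offset from all genes. It moved the median of all genes by 0.16. The members' median minus that of all genes was -0.34 without rescaling and so also with sums made equal, but -0.18 under quantile normalization.

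A median is called moved here when it differs by over 0.1 and by over 1.5 times. Under quantile normalization the median of all members was -0.18, with -0.065 for the carnitine shuttle, -0.18 for the dehydrogenases, -0.21 for electron transfer, -0.24 for hydration to thiolysis and -0.23 for unsaturated chains, and 4 members were at least 1.5-fold lower. With sums made equal these were -0.21, -0.10, -0.23, -0.28, -0.27 and -0.21, the peroxisomal median was 0.12, 4 members were at least 1.5-fold lower and 1 (Cpt1a) higher. With the length trend removed, electron transfer was at -0.27 and unsaturated chains at -0.24. At an average mean of at least 50, Acot1 dropped out and the thioesterase value was -0.39. The other 59 recomputed main results were within those bounds. The cause of these shifts was not tested.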

Other observations

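Genes outside the member list that PPARs are known to control were split in direction about as all genes were. Of 17 measured targets, 9 (52.9%) had log2 ratios below 0 in the authors' deposited table, against 54.5% of all genes. Their median was -0.03 (0.16 under quantile normalization and 0.13 with sums made equal), against -0.03 over all genes without rescaling. None of the 17 was called, where 0.385% of all genes were called higher and 0.348% lower. Fabp3, a fatty acid binding protein of muscle and brown fat, had authors' means of 8524 and 3120.4, whereas Fabp4, its counterpart in all adipocytes, named after its values were seen, had 223241 and 218556. Pdk4, the kinase that spares glucose by blocking pyruvate dehydrogenase, had 6071 and 5429. Angptl4, a secreted inhibitor of lipoprotein lipase, had 953 and 2009, and Vnn1, a pantetheinase, 101 and 223, both named after their values were seen.

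Genes of fatty acid uptake and binding had a median log2 ratio of -0.10 over 11 genes in the authors' deposited table (0.05 with sums made equal). Fabp5, another binding protein, had means of 3453 and 2178. Cd36 and Lpl, the fatty acid translocase and lipoprotein lipase, were picked after their values were seen, at 41106 and 40378 and at 84667 and 78803. Aacs, which makes acetoacetyl-CoA in the cytosol, had means of 1785 and 1273, while Oxct1, which starts ketone use and was picked after its value was seen, had 2492 and 2476. Of the 5 measured ketone body genes 4 had ratios below 0 in the authors' deposited table (median -0.01, but 0.15 with sums made equal).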
